A study of Mus musculus with 9 samples.

Results

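The gene set described here holds 100 genes that were lower in eyes with retinal vein occlusion (RVO) than in control laser-treated eyes. They were taken from genes whose level differed little between control laser-treated and untreated eyes. The order was set by the highest RVO against the lowest control sample and not by the mean drop. They were chosen from 48679 listed names by the measured values themselves. Counts were converted to CPM, which scales each sample to a total of 1000000 counts, and 0.5 was added. Genes were kept if their mean count in the control samples was at least 20 and if the log2 ratio of the control mean to the untreated mean lay within 0.3 of 0. Of the 15195 genes with enough counts, 6356 met the second condition. These were ordered by the ratio of the highest RVO sample to the lowest control sample, and the 100 of lowest ratio were taken. The drop after RVO and the small difference between control and untreated eyes are therefore how the genes were chosen and not results. All values of these 3 groups are given below as a description.

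The series held 9 RNAseq samples of retinas from C57BL/6J mice aged 12 weeks, each sample a pool of 6 retinas. In the 3 RVO samples, all large veins of an eye had been closed by a laser after injection of the photosensitizer eosin Y (200 mg/kg), with 50 mW on a spot of 50 µm for 2.5 s. The 3 control samples were the fellow eyes of these mice, which received eosin Y and the same laser scheme between the large vessels, and both groups were taken at d2. The 3 untreated samples came from other mice without laser treatment, so no group received eosin Y without laser. A pool hides differences between mice, and n counts pools. Since the samples were whole retinas, fewer cells of a type and less RNA per cell cannot be told apart. The label of the tissue held, since the 19 rod photoreceptor genes of a marker list summed to 66777 to 106505 CPM in every sample. Total counts ranged from 12377572 to 15245869 in untreated, 18897218 to 23419497 in control and 21022997 to 28993921 in RVO samples.

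The large veins lie on the inner surface of the retina, and their branches drain the inner layers, while photoreceptors are supplied mainly from the choroid. The inner layers hold the bipolar cells, which carry photoreceptor signals inward, the horizontal and amacrine cells, which shape these signals, and the ganglion cells, whose axons form the optic nerve. Bipolar cells of the ON type sense glutamate from photoreceptors through the receptor mGluR6, encoded by Grm6, which acts through a G protein to close the cation channel TRPM1. Ganglion cells are known for POU4F transcription factors, neurofilaments and gamma-synuclein.

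Among the 100 genes, the ratio of the highest RVO to the lowest control sample ran from 0.4996 to 0.653 (median 0.613), against a median of 1.16 over the 6356 eligible genes. The edge of the set was gradual. The 5 genes just inside were Fam19a3, Slit2, Wnt9b, Nefl and 1700040D17Rik, with ratios of 0.649 to 0.653. The 5 just outside were Cend1, Gm10125, Sag, Kalrn and Grik2, with ratios of 0.653 to 0.660. Sag, the arrestin of rods, was at 4543, 4662 and 4680 CPM in the RVO samples and 7098 to 7601 CPM in the control samples. Levels within the set covered a wide range. The mean in control eyes was under 10 CPM for 31 genes, between 10 and 100 CPM for 49 and above that for 20, from 1.12 CPM for Nkain3 to 642 CPM for the imprinted long noncoding RNA Meg3. Per kilobase of exon, the level in control eyes was lowest for Nkain3 (0.161 CPM per kb) and highest for Calb2 (191 CPM per kb). In 14 genes at least 1 RVO sample had 20 counts or fewer, down to 3 counts of Gm16322, so the size of their drop is imprecise.

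The depth of the drop differed between the RVO pools. Over the 100 genes, the median level relative to a gene's mean in control eyes was 26.4% in RVO replicate 1, 56.1% in RVO replicate 2 and 33.3% in RVO replicate 3. It was 96.9% to 101% in the control samples and 105% to 106% in the untreated samples. RVO replicate 2 was the highest RVO sample for 96 of the 100 genes, with BB114814, Rpp25, Slc35d3 and Stox1 as the exceptions. Among all eligible genes it was the highest for 38.7%, and for 82.7% of the 1630 that were lower in every RVO than in every control sample. RVO replicate 1 was the lowest for 92 of the 100. The coefficient of variation between the 3 RVO samples had a median of 43.0% over the 100 genes and of 10.01% over the eligible genes, whereas control samples varied by 5.05% and 5.57%. Averaged over the 3 RVO samples, the median level was 39.0% of control, and without RVO replicate 2 it was 29.9%.

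**Figure D1:**
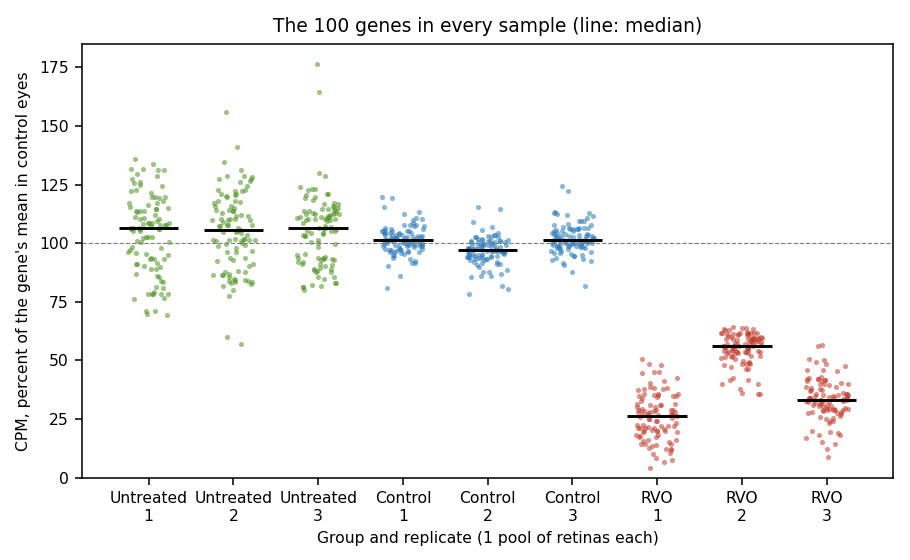
Level of each of the 100 genes (points) in each of the 9 samples, in percent of the mean CPM of that gene in the 3 control samples, with the median as a line. The medians are 26.4%, 56.1% and 33.3% in the RVO samples and lie between 96.9% and 106% in the other 6 samples.

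Every RVO sample lay below every control sample for all 100 genes, which the choice of genes fixed, and for 25.6% of the eligible genes. Every RVO sample also lay below every untreated sample for all 100, against 28.9% of the eligible genes. The level stayed under 50% of the control mean in each of the 3 RVO samples for 17 of the 100 genes and for 0.551% of the eligible genes. Nothing is read from these shares, because the genes were chosen by these samples. The same limit applies below wherever RVO samples of a gene of the set lie under the control or untreated samples. Control laser treatment alone left the levels of the 100 genes close to those of untreated eyes only on the scale of the rule. There, the median log2 ratio of control to untreated eyes was -0.09 for the 100 genes and 0.01 for the eligible genes. In 39 genes every control sample lay below every untreated sample (20.2% of the eligible genes), in 18 every control sample lay above (20.1%), and in 43 they overlapped. With TMM scaling by edgeR, which allows for a few genes taking a larger share of the counts, the log2 fold change between control and untreated eyes had a median of -0.26 over the 100 genes and of 0.01 over all genes tested.

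Tests of single genes were made with edgeR's quasi-likelihood test across all genes with Benjamini-Hochberg adjustment, at an adjusted p under 0.01. They are a description too, since the rule used all 3 groups. Between RVO and control eyes, 15 of the 100 genes were called lower and 0 higher, where 0.634% of all genes tested were called lower and 2.7% higher. At an adjusted p under 0.05 all 100 were called, with 17.1% of all genes. The 15 were Fam188b2-ps, Pou4f3, Fzd10, 5430419D17Rik, BB114814, Cpne7, Kcnmb2, Rpp25, Ankrd55, Meg3, Mtus2, Tmem35a, Drp2, Resp18 and Chrna4. Their median log2 fold change was -1.22, against -1.44 for the other 85 genes, and their median standard error was 0.18 against 0.30. The called genes were thus not those with the deepest drop. Without RVO replicate 2 all 100 were called, as were 19.3% of all genes. Without any other single RVO or control sample, 0 of the 100 and 0.0% of all genes tested were called lower at this threshold. All 100 had an unadjusted p under 0.05 in every one of these fits. Nothing is read from this, because these samples chose the genes. Between control and untreated eyes, 36 of the 100 were called lower and 0 higher, where 25.2% of all genes were called lower and 27.2% higher. Isl1, Gabrr2, Sncg, Calb2, Pou4f1 and Nefl were among the 36. On the scale of the rule, the words "not by laser" mean only that the log2 ratio of control to untreated eyes lay within 0.3 of 0. Even there, every control sample of Isl1 and Sncg lay below every untreated sample. For the 36 genes the words do not hold with TMM scaling. Without that scaling, 10 of the 100 were called lower and 7 higher. Of all 16066 genes tested, 15.5% were then called lower and 8386 were called in all. The median over all genes shifted to 0.19 while that of the 100 was -0.09. Between RVO and untreated eyes, 98 of the 100 were called lower and 0 higher, where 24.6% of all genes were called lower and 27.4% higher.

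**Figure D2:**
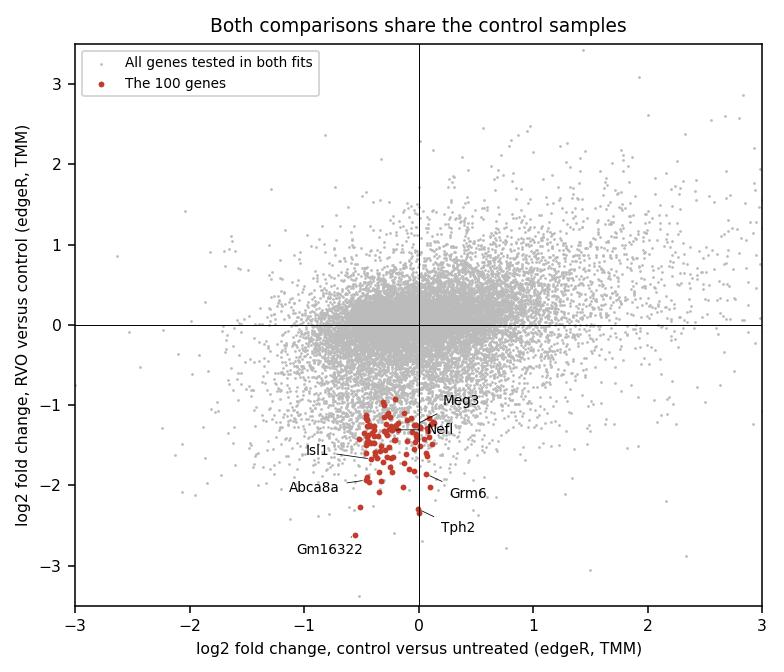
Log2 fold changes by edgeR with TMM scaling for RVO versus control eyes (vertical axis) against control versus untreated eyes (horizontal axis) for 15977 genes tested in both (grey; 181 lie beyond the axes) with the 100 genes in red. Both axes contain the control samples. The 100 genes lie between -2.61 and -0.92 on the vertical axis and between -0.56 and 0.13 on the horizontal axis.

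Bipolar cell genes made up the largest group with a known cell type. Of the 30 genes in a bipolar cell list, 16 were eligible and 8 of these were in the set. Grm6 encodes the glutamate receptor mGluR6 of ON bipolar cells. It was at 103, 104 and 98.6 CPM in the untreated, 126, 105 and 129.7 CPM in the control and 16.6, 58.04 and 28.1 CPM in the RVO samples. Its RVO samples were far apart, and the highest of them was below every control and untreated sample. On the log2 scale Grm6 differed by -1.86 (SE 0.41) between RVO and control eyes. Gpr179 encodes a receptor-like protein that holds regulators of the mGluR6 cascade at the tips of ON bipolar dendrites. The level of Gpr179 was 131, 139 and 126 CPM in the untreated, 136, 130.2 and 147 CPM in the control and 27.1, 73.6 and 39.5 CPM in the RVO samples. Control and untreated samples of Gpr179 overlapped, and the order of the RVO samples was that of Grm6, with replicate 1 lowest and replicate 2 highest. The log2 fold change of Gpr179 was -1.61 (SE 0.33). Sebox encodes a homeobox transcription factor and was measured at 56.1, 57.8 and 59.5 CPM in the untreated, 56.1, 54.3 and 56.96 CPM in the control and 16.04, 31.8 and 23.02 CPM in the RVO samples, with RVO samples closer together than those of Grm6.

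Transcription factors of bipolar cells followed the same order. Isl1, a LIM homeobox factor of ON bipolar cells that amacrine and ganglion cells also use, was at 65.7, 65.8 and 63.2 CPM in the untreated, 54.6, 52.5 and 57.7 CPM in the control and 8.52, 29.2 and 15.8 CPM in the RVO samples. Lhx4, a LIM homeobox factor of cone bipolar cells, was at 45.6, 54.5 and 53.98 CPM in the untreated, 58.1, 56.9 and 59.7 CPM in the control and 16.3, 35.8 and 21.8 CPM in the RVO samples. Irx6, an Iroquois homeobox factor of OFF cone bipolar cells, was at 13.6, 18.1 and 17.8 CPM in the untreated, 20.6, 18.9 and 19.2 CPM in the control and 3.90, 11.1 and 5.14 CPM in the RVO samples. Control samples lay below the untreated samples for Isl1 and above them for Lhx4 and Irx6, and all 3 genes had RVO samples below both other groups. Log2 fold changes between RVO and control eyes were -1.67 (SE 0.38) for Isl1, -1.29 (SE 0.26) for Lhx4 and -1.59 (SE 0.36) for Irx6. Scgn, which encodes the calcium-binding protein secretagogin of cone bipolar cells, was at 70.4, 76.9 and 76.2 CPM in the untreated, 68.6, 57.6 and 69.4 CPM in the control and 10.4, 35.1 and 18.9 CPM in the RVO samples. Car8, which encodes a relative of the carbonic anhydrases that lacks the enzyme activity, was at 83.1, 92.1 and 85.2 CPM in the untreated, 76.8, 76.6 and 72.8 CPM in the control and 12.2, 43.7 and 21.9 CPM in the RVO samples. Gabrr2 encodes the rho2 subunit of the GABA receptors found on bipolar cell axon terminals and was at 81.2, 83.4 and 84.9 CPM in the untreated, 71.6, 73.9 and 78.4 CPM in the control and 14.97, 41.7 and 24.8 CPM in the RVO samples. In these 3 genes as well, RVO replicate 1 was lowest and RVO replicate 2 highest, and no RVO sample reached the control or untreated samples.

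The other bipolar cell genes show how the limit on laser effects shaped the set. Of the 30 genes, 29 had a negative log2 fold change between RVO and control eyes, and 28 were lower in every RVO than in every control sample, as were 25.6% of the eligible genes. At an adjusted p under 0.01, 2 (Prkca and Rgs7) were called lower, where 0.634% of all genes were, and 25 at an adjusted p under 0.05, where 17.1% were. Their median log2 fold change was -1.51, and that of all genes was 0.02. Counts and medians of this and the other lists include genes of the set, 8 here, whose drop the choice of genes fixed. The share of 25.6% covers eligible genes only, and 14 of the 30 were not eligible. Of the 30 genes, 14 missed the limit between control and untreated eyes, 7 because they were lower and 7 because they were higher in control eyes. Those lower in control eyes were Vsx1, Prkca, Cabp5, Rgs7, Lrtm1, Tacr3 and Neto1, with RVO means of 26.9% to 61.9% of control. Those higher in control eyes were Pcp2, Gng13, Nyx, Bhlhe23, Cabp2, Nnat and Syt2, with RVO means of 29.1% to 60.2% of control. The 8 genes in the set had RVO means of 28.5% to 42.3% of control. Trpm1, the channel that Grm6 controls, was eligible but not in the set, with means of 211 CPM in untreated, 215 CPM in control and 123 CPM in RVO eyes and a log2 fold change of -0.84 (adjusted p = 0.0595). Otx2, which photoreceptors also express, had means of 230 CPM in control and 236 CPM in RVO eyes (adjusted p = 0.864). Lrit3 was at 46.7 CPM in control and 58.6 CPM in RVO eyes, with an adjusted p of 0.131.

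**Figure D3:**
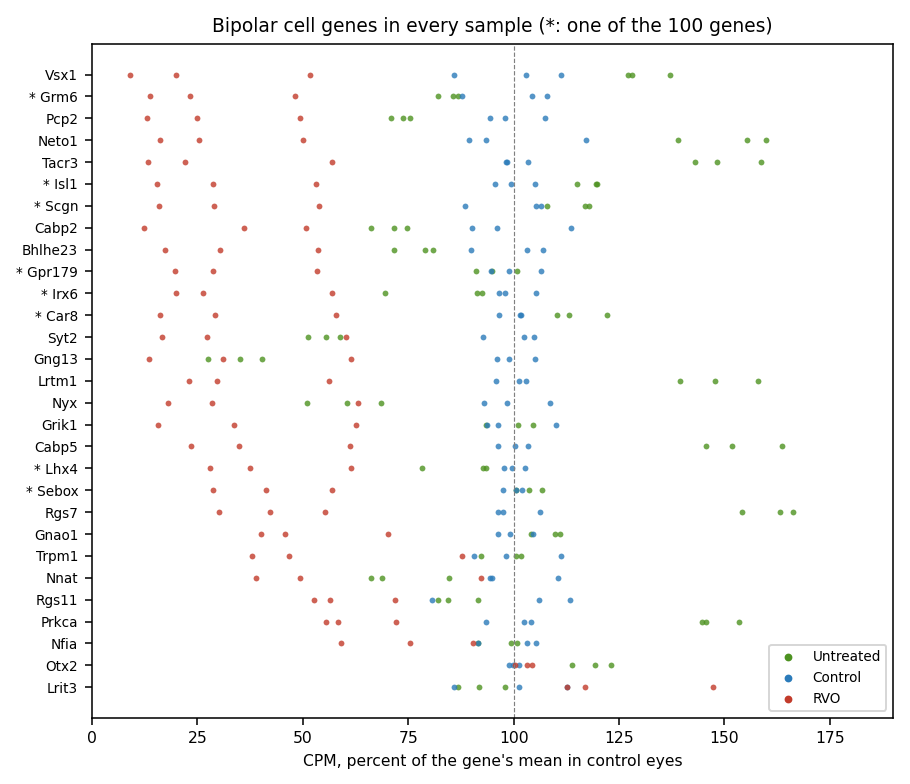
CPM of 29 of the 30 bipolar cell genes in each of the 9 samples, in percent of the gene's mean in control eyes, ordered by the RVO mean, with asterisks at the 8 genes of the set. RVO samples (red) lie to the left of the control samples (blue) for 27 genes, while untreated samples (green) lie on either side of the control samples. Otx2 and Lrit3 are the rows at the bottom without a drop.

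The sequences upstream of 5 genes are shown. Grm6 and Gpr179 were chosen as the genes of the mGluR6 pathway in the set, and Isl1, Gabrr2 and Kcnj9 as 3 of the 6 genes of the set that hold TAATCC, the core of the motif of the photoreceptor and bipolar cell factors CRX and OTX2. They end before the first base that RefSeq or GENCODE vM21 counts in the gene, are taken from RefSeq (build GRCm38.p6), read 5′ to 3′ on the strand of the gene, and show TAATCC or its reverse complement GGATTA in capitals. Grm6 (plus strand) is covered from chr11:50850435-50850684, Gpr179 (minus strand) from chr11:97352357-97352606, Isl1 (minus strand) from chr13:116309690-116309938, Gabrr2 (plus strand) from chr4:33062862-33062998 and Kcnj9 (minus strand) from chr1:172329323-172329572.
Grm6: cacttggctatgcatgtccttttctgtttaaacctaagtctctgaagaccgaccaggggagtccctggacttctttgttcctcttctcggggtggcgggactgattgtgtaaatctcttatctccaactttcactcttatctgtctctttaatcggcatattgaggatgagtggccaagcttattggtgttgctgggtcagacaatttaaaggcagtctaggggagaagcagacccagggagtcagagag
Gpr179: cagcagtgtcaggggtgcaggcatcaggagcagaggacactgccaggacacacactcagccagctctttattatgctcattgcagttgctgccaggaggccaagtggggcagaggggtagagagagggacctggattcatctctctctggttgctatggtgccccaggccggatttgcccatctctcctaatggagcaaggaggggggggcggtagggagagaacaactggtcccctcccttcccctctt
Isl1: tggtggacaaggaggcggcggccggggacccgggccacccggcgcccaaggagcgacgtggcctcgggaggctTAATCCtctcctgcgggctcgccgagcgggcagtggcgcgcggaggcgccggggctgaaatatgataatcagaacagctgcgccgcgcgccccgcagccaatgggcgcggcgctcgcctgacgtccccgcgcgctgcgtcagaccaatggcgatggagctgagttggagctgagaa
Gabrr2: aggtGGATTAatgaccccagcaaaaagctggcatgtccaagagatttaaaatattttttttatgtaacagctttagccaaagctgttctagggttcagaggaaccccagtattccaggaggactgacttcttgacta
Kcnj9: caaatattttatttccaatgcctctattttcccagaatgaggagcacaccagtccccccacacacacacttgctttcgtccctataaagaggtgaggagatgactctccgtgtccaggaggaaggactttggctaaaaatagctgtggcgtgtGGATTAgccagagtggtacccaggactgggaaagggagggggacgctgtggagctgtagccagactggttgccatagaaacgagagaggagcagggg
Isl1, Gabrr2 and Kcnj9 held the letters once each and Grm6 and Gpr179 held none. The other genes with the letters were Abcc9, Slc24a4 and Tmem35a, and the 3 shown were picked after the matches were seen, for their known roles in transcription and neurotransmission. Counting both strands, windows of 250 bases before to 50 after the start were at hand for 66 of the 100 genes (72 windows), and 8.33% held TAATCC. Of the windows of eligible genes 5.89% held it, and of all windows 7.06%. The E-box letters CACGTG were in 9.72% of the windows of the set and 9.30% of those of eligible genes, and ACGTG, the core of the motif of hypoxia-inducible factors, which every CACGTG contains, was in 26.4% and 24.9%. The letters TGACGT were in 11.1% and 11.9%, TATAAA in 9.72% and 6.80%, AGGTCA in 15.3% and 12.2% and GCGTGGG in 5.56% and 8.46%. These matches describe letters and not binding.

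Genes known from retinal ganglion cells formed the next group, with 6 genes of a list of 35, of which 17 were eligible. Pou4f1, which encodes the transcription factor BRN3A, was at 37.6, 38.6 and 34.4 CPM in the untreated, 31.6, 29.9 and 30.2 CPM in the control and 8.17, 18.4 and 10.1 CPM in the RVO samples. Pou4f3, which encodes the related BRN3C, was at 6.46, 6.15 and 4.72 CPM in the untreated, 6.30, 5.19 and 5.21 CPM in the control and 1.41, 2.58 and 1.52 CPM in the RVO samples. Sncg, which encodes gamma-synuclein, was at 128, 116 and 110.5 CPM in the untreated, 94.4, 94.6 and 102 CPM in the control and 20.3, 56.3 and 29.6 CPM in the RVO samples. All 3 were lowest in RVO replicate 1, and for Pou4f1 and Sncg the control samples also lay below all untreated samples. Log2 fold changes between RVO and control eyes were -1.37 (SE 0.28) for Pou4f1, -1.65 (SE 0.26) for Pou4f3 and -1.50 (SE 0.33) for Sncg.

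Neurofilaments form the skeleton of long axons. Nefl, the light chain, was at 400.2, 407 and 413 CPM in the untreated, 396, 392 and 383 CPM in the control and 101, 249 and 137 CPM in the RVO samples. Nefm, the medium chain, was at 159, 158 and 155 CPM in the untreated, 176, 166 and 179 CPM in the control and 34.1, 107 and 55.3 CPM in the RVO samples. In both genes RVO replicate 2 kept more than the other RVO samples but stayed below every control and untreated sample. The log2 fold changes were -1.31 (SE 0.30) for Nefl and -1.46 (SE 0.37) for Nefm. These 2 genes lie on opposite strands of chromosome 14 and share 1108 bases of exon in the annotation, which is 32.8% of the exon bases of Nefl, and whether the counting used the strand is not given in the sources used here, so their values may not be separate. Nefh, the heavy chain, lay outside the set with 104 CPM in control and 77.8 CPM in RVO eyes, a log2 fold change of -0.47 (adjusted p = 0.00817). Tusc5, a membrane protein gene of the list that the annotation names Trarg1, was at 34.8, 38.1 and 39.8 CPM in the untreated, 47.8, 42.3 and 43.5 CPM in the control and 10.8, 22.1 and 11.6 CPM in the RVO samples, and its control samples lay above all untreated samples. Of the 35 ganglion cell genes, 30 had a negative log2 fold change, with a median of -0.96. At an adjusted p under 0.01, 2 were called lower (Pou4f3 and Nefh) and 1 higher, which was Spp1, the gene of the secreted protein osteopontin, beside 0.634% and 2.7% of all genes. At an adjusted p under 0.05, 26 were called lower and 3 higher, beside 17.1% and 17.5% of all genes. The 6 genes of the set, Pou4f3 among them, are part of these counts, and the choice of genes fixed their drop.

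Amacrine and horizontal cell lists each gave 1 gene. Calb2 encodes calretinin, a calcium-binding protein of amacrine and ganglion cells, and was at 354, 365 and 353 CPM in the untreated, 334, 321 and 343 CPM in the control and 89.6, 198 and 109 CPM in the RVO samples. It had the highest level per kilobase of exon in the set, and no RVO sample came near the control or untreated samples. Lhx1, a LIM homeobox factor of horizontal cells, was at 7.68, 6.36 and 7.28 CPM in the untreated, 7.51, 5.13 and 6.19 CPM in the control and 0.483, 2.49 and 1.71 CPM in the RVO samples. Its level was low throughout, and RVO replicate 1 had the lowest value of the 9 samples. The log2 fold changes were -1.38 (SE 0.28) for Calb2 and -2.09 (SE 0.48) for Lhx1. Of the 36 amacrine cell genes, 28 were called lower between RVO and control eyes at an adjusted p under 0.05 and 2 higher (17.1% and 17.5% of all genes), and the median log2 fold change was -0.95. Of the 13 horizontal cell genes, 9 were called lower and 0 higher at that threshold, with the same shares of all genes, and the median was -1.40.

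The next genes came from several lists. Cplx3 and Vamp1 came from a list of 49 genes of synaptic vesicle release. Slitrk1 and Slitrk3 came from a list of 66 genes of synapse adhesion and scaffold. Slit2 came from a list of 71 axon guidance genes. Whether the set held more of these lists than of others was not tested. Cplx3 encodes complexin 3, a regulator of vesicle fusion at ribbon synapses, and was at 424, 437 and 454 CPM in the untreated, 425, 432 and 453 CPM in the control and 125, 270.00 and 152 CPM in the RVO samples. Vamp1 encodes the vesicle protein synaptobrevin 1 and was at 95.5, 98.1 and 100.4 CPM in the untreated, 124, 111 and 117 CPM in the control and 41.7, 71.9 and 48.7 CPM in the RVO samples. The control samples of Vamp1 lay above all untreated samples while those of Cplx3 overlapped with them. Slitrk1 and Slitrk3 encode adhesion proteins of the synapse with leucine-rich repeats. Slitrk3 was at 22.3, 21.7 and 17.6 CPM in the untreated, 17.5, 16.5 and 17.1 CPM in the control and 3.72, 9.76 and 5.57 CPM in the RVO samples. Slitrk1 was at 8.56, 8.34 and 7.54 CPM in the untreated, 7.04, 6.67 and 6.96 CPM in the control and 2.17, 3.88 and 2.38 CPM in the RVO samples. In both Slitrk genes the control samples were below the untreated samples, and the RVO samples were lower again. Slit2 encodes a secreted guidance cue for axons and was at 123, 119 and 112 CPM in the untreated, 101, 101 and 102 CPM in the control and 20.7, 65.3 and 34.1 CPM in the RVO samples. It varied little between control samples, and its RVO samples were the farthest apart, relative to their mean, of these 5 genes.

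Ion channels and receptors were among the proteins that genes of the set encode. The potassium channel list held 3 genes of the set among 29 eligible and 90 in all. Kcna2, the voltage-gated channel Kv1.2, was at 115, 122 and 111 CPM in the untreated, 103, 109 and 105 CPM in the control and 30.6, 65.8 and 34.2 CPM in the RVO samples. Kcnj9, the inward rectifier GIRK3 that G proteins open, was at 83.5, 87.3 and 91.5 CPM in the untreated, 107, 99.96 and 113 CPM in the control and 24.7, 63.4 and 29.8 CPM in the RVO samples. Kcnmb2, an auxiliary subunit of the calcium-activated BK channel, was at 1.86, 2.54 and 2.43 CPM in the untreated, 2.05, 1.48 and 2.13 CPM in the control and 0.345, 0.713 and 0.476 CPM in the RVO samples. Kcnj9 was higher in control than in untreated eyes, Kcna2 was lower, and Kcnmb2, with 10, 16 and 10 counts in the RVO samples, was imprecise. Over the 74 potassium channel genes tested, 46 were called lower and 1 higher at an adjusted p under 0.05 (17.1% and 17.5% of all genes), and the median log2 fold change was -0.96. Cacna2d3, which encodes an auxiliary subunit of voltage-gated calcium channels, was at 73.9, 68.7 and 75.5 CPM in the untreated, 66.4, 58.9 and 63.96 CPM in the control and 9.66, 34.9 and 19.2 CPM in the RVO samples. Grin3a, a subunit of NMDA type glutamate receptors, was at 12.4, 13.1 and 12.4 CPM in the untreated, 10.4, 10.4 and 10.4 CPM in the control and 2.79, 6.10 and 3.42 CPM in the RVO samples. Chrna4, a subunit of nicotinic acetylcholine receptors, was at 28.9, 28.3 and 29.7 CPM in the untreated, 28.4, 23.4 and 28.4 CPM in the control and 10.1, 15.01 and 10.3 CPM in the RVO samples. RVO replicates 1 and 3 of Chrna4 lay close together, and its log2 fold change was -1.23 (SE 0.18). Gfra2, a receptor for the growth factor neurturin, was at 29.5, 28.7 and 30.4 CPM in the untreated, 26.9, 25.2 and 26.1 CPM in the control and 6.79, 15.99 and 8.23 CPM in the RVO samples.

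The lists of Mueller cell, pericyte and smooth muscle, transporter, and Notch and Wnt genes gave 1 gene each. Abca8a, a lipid transporter gene of the Mueller cell list, was at 236, 246 and 239 CPM in the untreated, 219, 187 and 186 CPM in the control and 19.9, 109 and 30.3 CPM in the RVO samples. Its RVO samples were far apart, and its neighbour Abca6, which lies 80842 bases away on chromosome 11, was in the set too, with means of 11.7 CPM in untreated, 9.58 CPM in control and 2.69 CPM in RVO eyes. The 42 genes of its list had a median of -0.09 for the log2 fold change between RVO and control eyes, with 14 called lower and 11 higher at an adjusted p under 0.05, beside 17.1% and 17.5% of all genes. Slc6a11, which encodes the GABA transporter GAT3, was at 199, 210.5 and 222 CPM in the untreated, 255, 246 and 254 CPM in the control and 70.05, 156 and 86.9 CPM in the RVO samples. Abcc9, the regulatory subunit of ATP-sensitive potassium channels of pericytes and smooth muscle, was at 6.79, 7.98 and 6.17 CPM in the untreated, 6.90, 6.46 and 6.49 CPM in the control and 0.690, 3.21 and 2.24 CPM in the RVO samples. Fzd10, a receptor for Wnt proteins, was at 9.78, 11.3 and 12.1 CPM in the untreated, 14.1, 13.3 and 13.8 CPM in the control and 6.17, 7.44 and 4.57 CPM in the RVO samples. Control samples of Slc6a11 and Fzd10 lay above all untreated samples, while those of Abcc9 overlapped with them. The log2 fold changes between RVO and control eyes were -1.93 (SE 0.58) for Abca8a, -1.32 (SE 0.27) for Slc6a11, -1.77 (SE 0.45) for Abcc9 and -1.22 (SE 0.19) for Fzd10.

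Several of the 25 genes of lowest ratio belong to none of the lists. Fam188b2-ps, listed as a pseudogene by its name, had the lowest ratio and was at 5.41, 3.81 and 4.53 CPM in the untreated, 4.20, 4.34 and 3.80 CPM in the control and 0.862, 1.65 and 0.809 CPM in the RVO samples. Gm16322, an antisense transcript, was at 1.62, 1.77 and 2.82 CPM in the untreated, 1.63, 1.59 and 1.58 CPM in the control and 0.103, 0.579 and 0.143 CPM in the RVO samples. Lect1, which encodes chondromodulin, was at 11.7, 10.1 and 11.02 CPM in the untreated, 11.5, 11.4 and 12.9 CPM in the control and 1.72, 5.79 and 3.04 CPM in the RVO samples. Gm16322 had the deepest mean drop of the set, to 17.2% of control, but with 3 counts in RVO replicates 1 and 3. Tph2, the enzyme that starts serotonin synthesis in neurons, was at 4.61, 6.15 and 5.38 CPM in the untreated, 6.34, 5.50 and 6.28 CPM in the control and 0.241, 2.81 and 0.856 CPM in the RVO samples. Lrrc55, an auxiliary protein of BK channels, was at 5.17, 4.38 and 4.92 CPM in the untreated, 4.24, 4.02 and 3.93 CPM in the control and 0.793, 1.96 and 1.86 CPM in the RVO samples. Ptprr, a tyrosine phosphatase, was at 17.6, 19.7 and 19.2 CPM in the untreated, 16.04, 15.7 and 14.7 CPM in the control and 3.38, 7.97 and 4.57 CPM in the RVO samples. Tph2 had the widest spread between RVO pools relative to its mean among these 6 genes, and it was 1 of the 2 genes of the set, with Slc35d3, not called lower between RVO and untreated eyes at an adjusted p under 0.01. Pcsk6, a proprotein convertase, was at 26.3, 26.4 and 24.7 CPM in the untreated, 28.7, 24.8 and 28.5 CPM in the control and 3.86, 14.2 and 6.56 CPM in the RVO samples. Pkp1, the desmosomal plakophilin 1, was at 10.4, 9.04 and 9.97 CPM in the untreated, 7.83, 7.88 and 8.63 CPM in the control and 2.31, 4.32 and 2.66 CPM in the RVO samples. Smim18, a small membrane protein, was at 2.42, 2.05 and 3.94 CPM in the untreated, 2.94, 3.49 and 3.80 CPM in the control and 0.586, 1.43 and 0.618 CPM in the RVO samples. By the choice of genes, none of these reached the control range in any RVO sample. The protein-coding gene 5430419D17Rik was at 22.4, 23.03 and 20.2 CPM in the untreated, 19.7, 15.6 and 18.5 CPM in the control and 8.04, 8.82 and 8.70 CPM in the RVO samples. Its RVO samples were nearly equal, unlike those of most genes of the set, and its log2 fold change of -1.12 (SE 0.13) came with a small standard error. Gm4792 was at 80.8, 75.4 and 86.9 CPM in the untreated, 72.1, 70.7 and 80.02 CPM in the control and 15.6, 39.3 and 23.02 CPM in the RVO samples. Gm37583 was at 150.03, 144 and 142 CPM in the untreated, 132, 133 and 159 CPM in the control and 35.3, 77.3 and 49.04 CPM in the RVO samples. Both are gene models without a known role, and both showed the usual order of the RVO samples. Gm44765 was at 5.82, 4.38 and 4.46 CPM in the untreated, 4.43, 5.29 and 6.70 CPM in the control and 0.448, 2.27 and 0.666 CPM in the RVO samples. A230077H06Rik, an antisense transcript that overlaps Vstm2b of the same set, was at 13.5, 15.1 and 12.8 CPM in the untreated, 12.9, 12.01 and 13.6 CPM in the control and 2.35, 6.64 and 3.76 CPM in the RVO samples. In RVO replicate 1 both were at a lower percentage of the control mean than the median gene of the set.

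**Figure D4:**
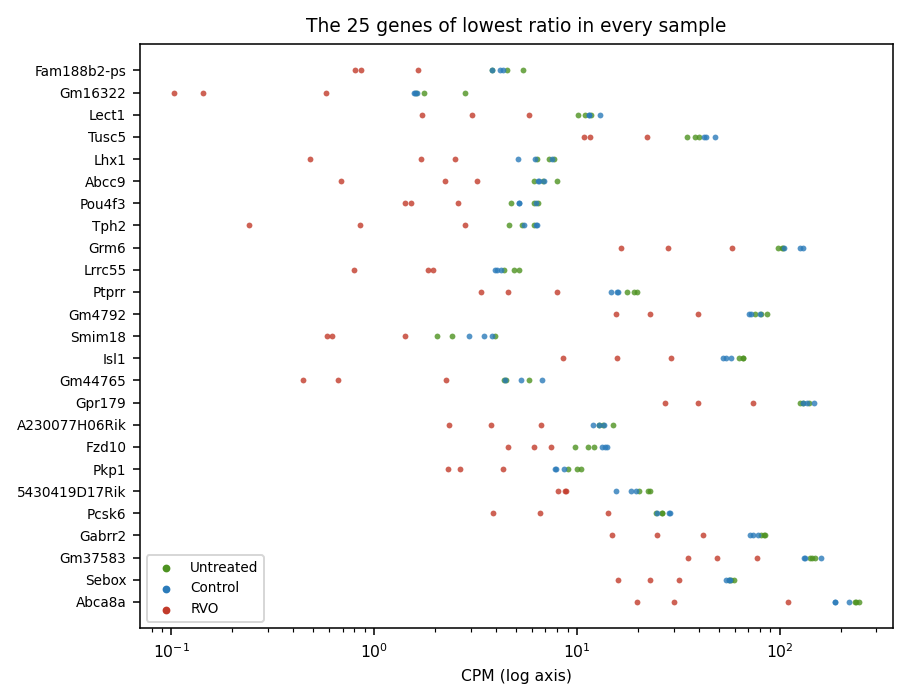
CPM on a log axis of the 25 genes of lowest ratio in the 3 untreated (green), 3 control (blue) and 3 RVO samples (red). RVO samples lie to the left of the other samples for each gene and are closest together for 5430419D17Rik (8.04 to 8.82 CPM).

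The remaining 53 genes, which were in no list and beyond the first 25, had RVO means of 21.7% to 54.7% of control. Among the more abundant, Meg3 had means of 579 CPM in untreated, 642 CPM in control and 280 CPM in RVO eyes. Spock2, which encodes an extracellular proteoglycan, had means of 399 CPM, 473 CPM and 201 CPM in the same order. Tubb4a, a beta-tubulin of neurons, had means of 234 CPM, 221 CPM and 79.3 CPM. Meg3 and Spock2 were thus higher and Tubb4a lower in control than in untreated eyes on this scale. Others with a known role were Pcp4, a calmodulin-binding protein (86.0 CPM in control and 32.1 CPM in RVO eyes), Gng3, a G protein subunit (72.0 and 31.0 CPM), Bmp3, a secreted bone morphogenetic protein (24.7 and 8.08 CPM), B3gat1, which makes the HNK-1 sugar (91.4 and 33.2 CPM), Slc24a4, a sodium, potassium and calcium exchanger (42.0 and 14.9 CPM) and Wnt9b, a Wnt ligand (1.99 and 0.769 CPM). The smallest drop of the set was in 1700040D17Rik, with 3.61 CPM in control and 1.97 CPM in RVO eyes.

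Of the 100 genes, 33 were in at least 1 of 38 lists of cell type and pathway genes, against 6.59% of the eligible genes. No test of this share was made. The lists were chosen with earlier results of these data known, so this share and the following ones may reflect that choice. The set held 50.0% of the eligible bipolar cell genes and 35.3% of the eligible ganglion cell genes. The shares were 5.56% for amacrine cell genes and 10.3% for potassium channel genes. Of the 4 eligible horizontal cell genes it held 1. Among the eligible genes it held 1 of 3 for pericytes and smooth muscle and 1 of 12 for Mueller cells. For glutamate receptors it held 2 of 11, and for GABA and glycine receptors 1 of 5. Shares that rest on 1 gene are imprecise. The set held 0 of the 7 eligible rod genes, 0 of the 4 eligible cone genes and 0 of the 9 eligible genes of phototransduction and the outer segment. It also held 0 of the 15 eligible HIF targets, 0 of the 13 eligible cholesterol synthesis genes and 0 of the 22 eligible nuclear oxidative phosphorylation genes. With 100 of the 6356 eligible genes in the set, lists this short would often hold 0, so no contrast is read from these counts. Summed over the 30 bipolar cell genes, the level was 3090 to 3250 CPM in untreated, 2840 to 3006 CPM in control and 1120 to 2000 CPM in RVO samples. The 19 rod genes summed to 102615 to 106505 CPM, 78633 to 93717 CPM and 66777 to 70351 CPM in the same order. Photoreceptor genes outside the set were also lower in RVO than in control eyes. At an adjusted p under 0.05, 12 of the 19 rod genes were called lower and 1 higher (median log2 fold change -0.36). Of 16 cone genes 10 were called lower and 0 higher (median -0.75). Of 23 genes of phototransduction and the outer segment 10 were called lower and 1 higher. The shares of all genes were 17.1% and 17.5%.

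**Figure D5:**
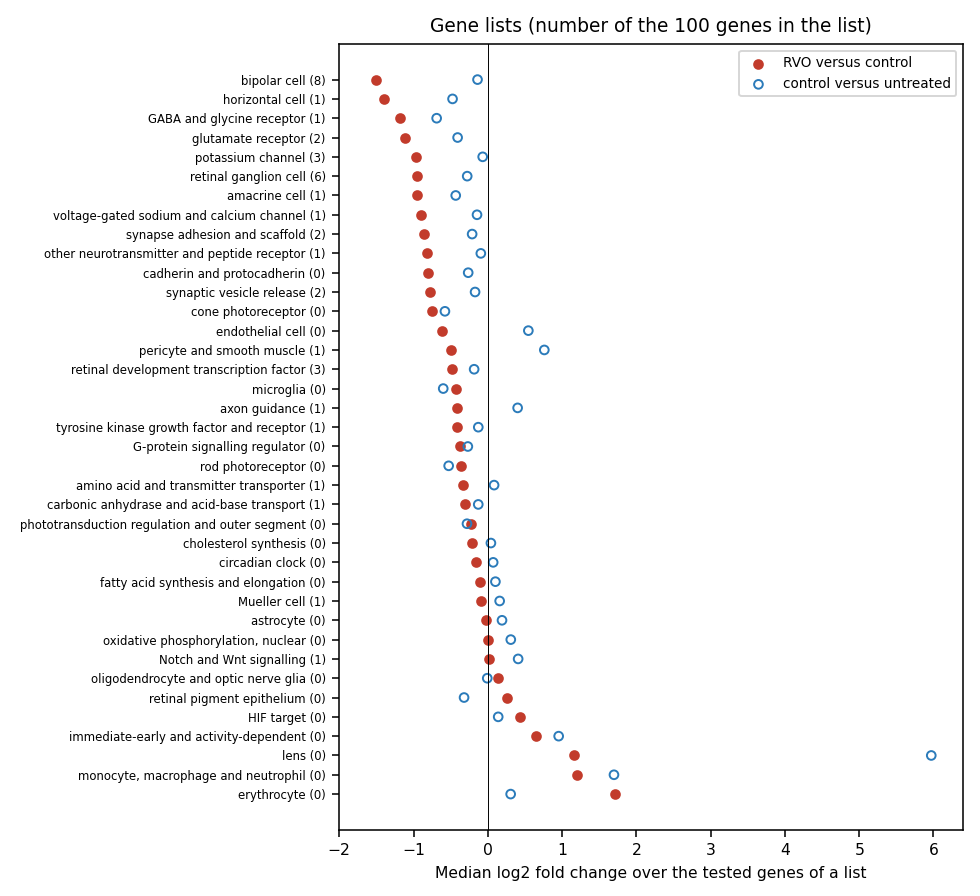
Median log2 fold change (edgeR) over the tested genes of each of 38 lists for RVO versus control eyes (filled) and control versus untreated eyes (open), with the number of the 100 genes in each list in brackets. Bipolar and horizontal cell genes have the lowest medians between RVO and control eyes (-1.51 and -1.40), and the lens list has the highest median between control and untreated eyes (5.97).

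Genes of other cell types moved with the RVO samples and between them. The 18 monocyte, macrophage and neutrophil genes summed to 515, 375 and 548 CPM in RVO replicates 1, 2 and 3, to 155 to 233 CPM in control and 30.1 to 35.3 CPM in untreated samples, and 12 of the 16 tested were called higher between RVO and control eyes at an adjusted p under 0.05, as were 17.5% of all genes. The 7 erythrocyte genes summed to 213, 52.2 and 85.8 CPM in RVO replicates 1, 2 and 3, to 29.2 to 32.2 CPM in control and 13.01 to 13.97 CPM in untreated samples. RVO replicate 2, where the 100 genes were highest, was thus the lowest RVO sample for both lists. The 17 lens genes summed to 266, 8489 and 794 CPM in RVO replicates 1, 2 and 3, to 293 to 4012 CPM in control and 6.23 to 32.6 CPM in untreated samples. No gene of these 3 lists was at 0 in all samples. The part of these cells in the drop of the 100 genes was not tested. The share of counts from mitochondrial genes was 1.77%, 3.17% and 2.42% in RVO replicates 1, 2 and 3. The control samples lay between 3.32% and 3.86% and the untreated ones between 7.73% and 9.92%. Within the RVO samples it had the order of the 100 genes, and its part in their drop was not tested. The 100 genes together summed to 6256 to 6705 CPM in control samples and to 1744, 3803 and 2209 CPM in RVO replicates 1, 2 and 3.

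The 100 genes were also described by their structure, which the rule did not use. In the GENCODE vM21 annotation of the same build (GRCm38), 97 matched 1 gene. The share of protein-coding genes was 91.8%, against 91.5% of the matched eligible genes. The median exon length was 4484 bases against 4826 bases, the median GC content 50.9% against 47.9%, and the median number of merged exons 7 against 10. Pairs of neighbours in the set, at most 98582 bases apart, were Nefm and Nefl, A230077H06Rik and Vstm2b, Abca8a and Abca6, Rpp25 and Cplx3, and Tmem35a and Drp2. Exon bases were shared with another gene by 31 of the 100, and at least 10% of the exon bases by 11, namely Grm6, Ptprr, Pcp4, Gm10605, Nwd2, Ralyl, Ackr1, Gng3, Nefm, Gm13446 and Nefl. Ackr1 and Pcp4 overlap genes on the same strand (Cadm3 and Igsf5). Reads in the shared exon bases, 25.7% of Ackr1 and 23.7% of Pcp4, cannot be assigned by strand either.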

How the data were processed

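RNA of 9 pools of retinas was sequenced as 50-base single reads from TruSeq Stranded mRNA libraries. The authors mapped the reads with STAR 2.5.2b to the mouse genome (build GRCm38, Gencode vM11) and counted them per gene with featureCounts of Subread 1.5.1, as their methods and processing notes state, and deposited the counts without normalization. Strand and multiple matches in counting are not given in the sources used here. The 92 spike-in names had 0 counts. Depth sets the precision of low genes, most of all in untreated samples. Replicates are separate pools and differed by more than sampling noise (chi-square per degree of freedom 3.15 to 54.1).

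CPM was computed from column sums. Counts were tested in R 4.3.3 with edgeR 4.0.16 (filterByExpr, TMM, quasi-likelihood test), in 1 fit per pair of groups, with Benjamini-Hochberg adjustment over all genes tested and a threshold of 0.01. Standard errors were computed as the log2 fold change divided by the root of F. The procedure was tested on simulated counts. Alternatives were other scalings, filters, fits and thresholds, DESeq2 1.42.0, the replicate number as a block, each sample left out in turn, and other settings of the rule. Genes given in every sample were the 25 of lowest ratio and those found in 38 lists. The genes and lists were chosen with earlier results of these data known. Same-numbered RVO and control samples had correlations of their deviations of -0.19, -0.19 and 0.11, and numbers were not taken to pair samples. Those with unlike numbers had correlations of -0.29 to 0.29, so these values cannot show whether pools were paired. The main fit treated RVO and control pools as independent, although they came from fellow eyes of the same mice. The number of columns not used was 0. The result of 1 gene is not reported here.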

Additional observations from a re-analysis of the deposited data

How the results depend on the processing

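The count of the 100 genes called lower between RVO and control eyes (15) depended on the fit, while their median log2 fold change (-1.41) stayed within -1.36 and -1.47 under the other scalings, filters, fits and DESeq2. The count was 100 at an adjusted p under 0.05, 10 with RLE size factors, 29 with library sizes only, 100 without a filter on low counts, 99 with all 9 samples in 1 fit and 94 with DESeq2. The share of all genes called lower moved with it, from 0.634% to 17.1%, 0.45%, 1.2%, 5.85%, 11.8% and 12.7% in the same order. With the replicate block the count was 0 by edgeR, as for all genes. All 100 had an unadjusted p under 0.05 in that fit, from which nothing is read, because these samples chose the genes. The labels share only numbers between groups, and not every same-numbered pair deviated together. Leaving out 1 sample gave 0 to 100, with 100 only without RVO replicate 2, and medians of -1.18 to -1.83. The share of all genes called lower was 19.3% without RVO replicate 2 and 0.0% without any other sample. Between control and untreated eyes, 36 genes were called. Library sizes only gave 17 and a median of -0.0871, where 8386 of 16066 genes were called in all. All 9 samples in 1 fit gave 1, called lower as were 17.5% of all genes, and a median of -0.28. No filter gave a median of -0.23. Leaving out 1 sample gave 27 to 37, all called lower, where 20.6% to 24.1% of all genes were, and medians of -0.24 to -0.29. Between RVO and untreated eyes (98), leaving out 1 sample gave 65 to 100, with 65 without RVO replicate 3. Of all genes, 15.8% to 31.0% were called lower in these fits, and 16.9% without RVO replicate 3. The causes were not tested.

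The set itself also depended on the rule. Of the 100 genes, 64 stayed with TMM-scaled CPM, 57 and 64 with limits of 0.2 and 0.5 between control and untreated eyes, 63 when ranked by means, and 59 to 98 with 1 sample left out, with 59 without RVO replicate 2. Under all 16 settings 18 genes stayed, among them Gpr179, Calb2, Pou4f3 and Tph2. Few counts limit genes such as Gm16322, Kcnmb2 and Smim18.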
